A study of Mus musculus with 19 samples.

Results

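Left ventricles of mice at day 10 of a tamoxifen-induced, transient cardiomyopathy were compared with those of control mice. The 8 samples were chosen by their titles: the 3 arrays titled day 10 and the 5 titled control, of 19 arrays in the series, which also holds 4 arrays at day 2, 3 at day 3 and 4 at day 28. All samples, controls included, came from male MerCreMer mice. In these animals the cardiac-specific myosin heavy chain promoter drives a Cre recombinase joined to mutated estrogen receptor domains, and tamoxifen switches the enzyme on in heart muscle cells. The line had been back-crossed to C57Bl6/J and the mice were 12 to 20 weeks old. The controls are baseline samples (day 0). The day 10 mice had received tamoxifen free base in peanut oil into the peritoneum, 1 mg (40 mg/kg) a day for 5 days, and were sampled 5 days after the last injection. A return to a normal diet once tamoxifen ended is also mentioned for days 10 and 28. Day 3 fell within the days of injection, and day 28 came 23 days after the last one. The series describes day 10 as the time of the deepest dysfunction and about 4 weeks as the time of full recovery. The 19 samples include neither vehicle-treated mice nor mice given tamoxifen in the absence of Cre, and the effects of tamoxifen, of active Cre and of time cannot be told apart. No floxed target gene is named in the labels.

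The adult heart draws most of its energy from fatty acids, which are carried into mitochondria as carnitine esters, shortened by beta-oxidation and burnt in the citric acid cycle and the respiratory chain. Nuclear receptors of the PPAR and ERR families and their PGC-1 coactivators keep the genes of this pathway active. In a failing heart the ventricle is known to return to a fetal-like programme of natriuretic peptides, altered sarcomere isoforms and more glucose use. Injury of heart muscle calls in neutrophils and monocyte-derived macrophages, which clear debris and release cytokines, and fibroblasts then lay down and cross-link new matrix. The tissue is a mixture, so fewer cells of a type and less RNA per cell cannot be told apart in any of the values below.

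Values are log2 intensities, on which 1 unit is a 2-fold change, and a fold change given as a log2 value is a difference between group means with its standard error (SE). The highest value on any array is 15.82, and genes near it are compressed. The median probe reads 7.32, and the folds of genes near or below it are understated. The arrays within a group correlated at 0.976 or more among controls and at 0.984 or more at day 10. The controls were not uniform: controls 4 and 5 lay apart from controls 1 to 3 on the second principal component (20.5 and 20.1 against 1.6 to 4.4), at the height of the day 10 (19.7 to 24.1) and day 28 arrays. The day 10 arrays correlated at 0.898 to 0.927 with controls 1 to 3 and at 0.919 to 0.943 with controls 4 and 5. For day 10 against control, several results that depend on which controls are used are given both ways. The size of a difference given only once can also depend on the controls used. Days 3 and 28 were compared with all 5 controls only. The ventricular light chain gene Myl2 read 15.55 to 15.78 in the controls and 15.75 to 15.82 at day 10. That is what ventricle should give, but at the ceiling Myl2 cannot show differences in the make-up of the samples. Atrial light chain Myl7 varied among the controls, from 6.99 to 11.40, and read 6.68 to 7.89 at day 10. Whether some samples held atrial tissue was not tested.

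Expression changed widely at day 10. Of 12938 genes tested, 2360 (18.2%) were higher than in control and 2489 (19.2%) lower at an adjusted p under 0.05 in limma, and 838 (6.48%) rose and 723 (5.59%) fell at least 2-fold. These shares are the background for every count below. The median change over all genes was -0.04. The plot of all genes by control and day 10 mean shows the rises reaching farther than the falls.

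**Figure D1:**
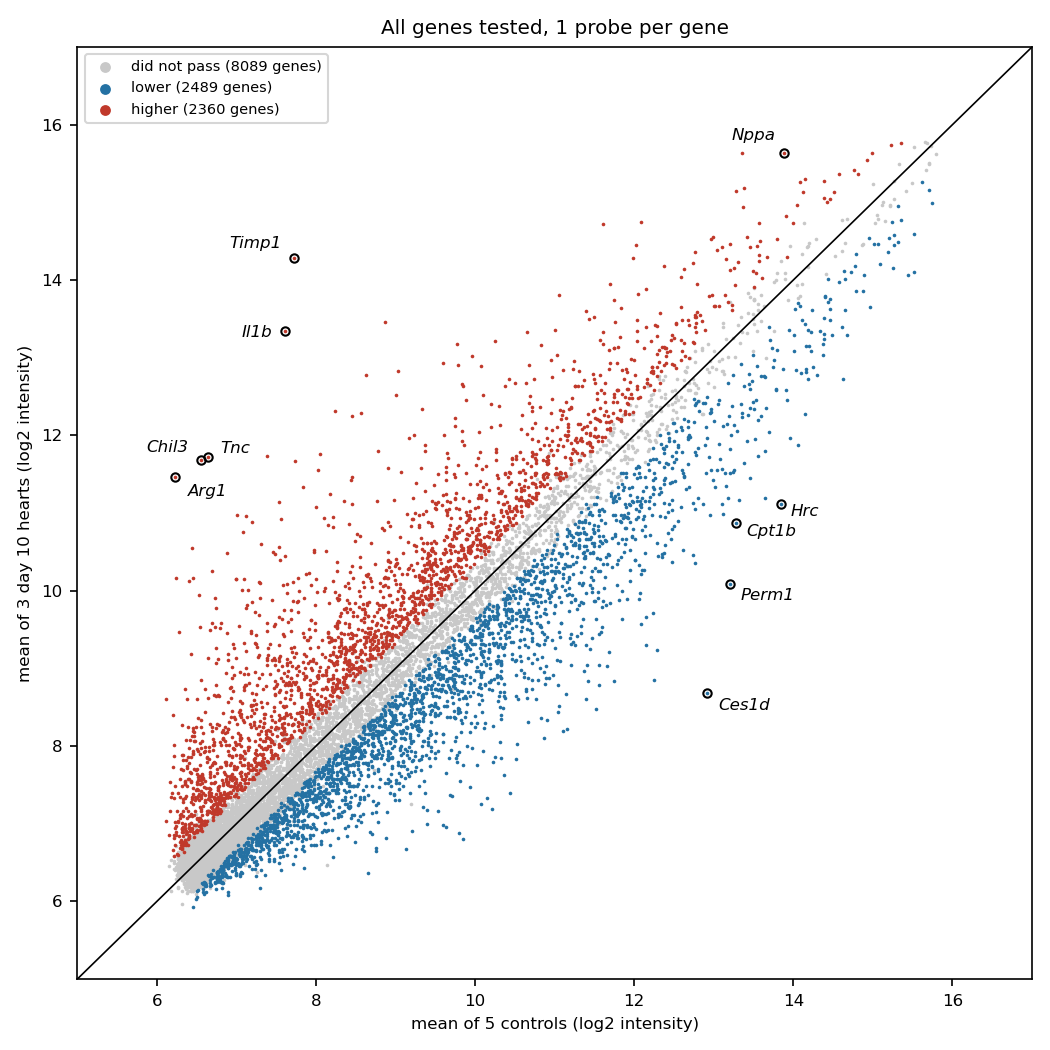
Mean log2 intensity of each of the 12938 genes in the 5 control arrays (x axis) and the 3 day 10 arrays (y axis), one probe per gene. Coloured points are the 2360 genes that were higher and the 2489 that were lower at an adjusted p under 0.05, and grey points are the 8089 that did not pass.

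The largest rise was that of Timp1, a secreted inhibitor of matrix metalloproteinases. Timp1 read 7.75, 7.67, 7.42, 8.01 and 7.74 in the 5 controls and 14.38, 14.47 and 13.99 in the 3 day 10 arrays. All 3 day 10 arrays lay above every control, at 94.6 times the control mean (log2 6.56 ± 0.48 SE, adjusted p = 2.44e-10). Il1b, which encodes the inflammatory cytokine interleukin-1 beta, read 7.18, 6.80, 7.19, 9.40 and 7.48 in the controls, of which control 4 was the highest, and 13.90, 13.44 and 12.70 at day 10. It rose by 5.74 ± 0.50 SE (adjusted p = 3.36e-09). Among the 15 genes with the largest rises were also Arg1 (5.23), which degrades arginine, Ch25h (3.84), which makes 25-hydroxycholesterol, the pattern recognition receptor gene Cd14 (4.08), Sirpb1a (4.11), a signal-regulatory receptor of myeloid cells, and Stfa1 (3.92), a cysteine protease inhibitor whose close copies its probe may not separate. Fos (3.80) is an immediate early gene, and the other 7 are described with their groups below.

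The largest fall was that of Ces1d, a carboxylesterase that hydrolyses stored lipid. Ces1d read 13.05, 12.48, 13.12, 13.02 and 12.89 in the controls and 8.40, 8.40 and 9.24 at day 10. The groups were far apart, and the day 10 mean was 18.8-fold lower (log2 -4.23 ± 0.25 SE, adjusted p = 2.47e-11). Fndc5, the precursor of the secreted muscle peptide irisin, fell by 3.40, and Perm1, a muscle-specific regulator of PGC-1 and ERR target genes, by 3.11. Further falls among the 15 largest were those of Txlnb (-3.05), a muscle-enriched taxilin, Ky (-3.05), which maintains muscle structure, Lynx1 (-3.05), a modulator of nicotinic receptors, Rbfox1 (-2.92), a splicing regulator of heart and brain, Ank1 (-2.85), which anchors membrane proteins, Fn3k (-2.92), which removes sugar adducts from proteins, Art1 (-2.92), an ADP-ribosyltransferase of muscle, Asb10 (-2.82), a substrate receptor of ubiquitin ligases, and Scara5 (-2.83), a ferritin receptor. The galectin gene Lgals4 (-3.04), the tubulin-modifying Ttll1 (-3.02) and Lrrc14b (-2.91), a leucine-rich repeat protein of muscle, completed the 15. Every one of these 30 genes had its 3 day 10 arrays outside the range of all 5 controls, as did 18.4% of all genes tested above that range and 19.4% below it.

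**Figure D2:**
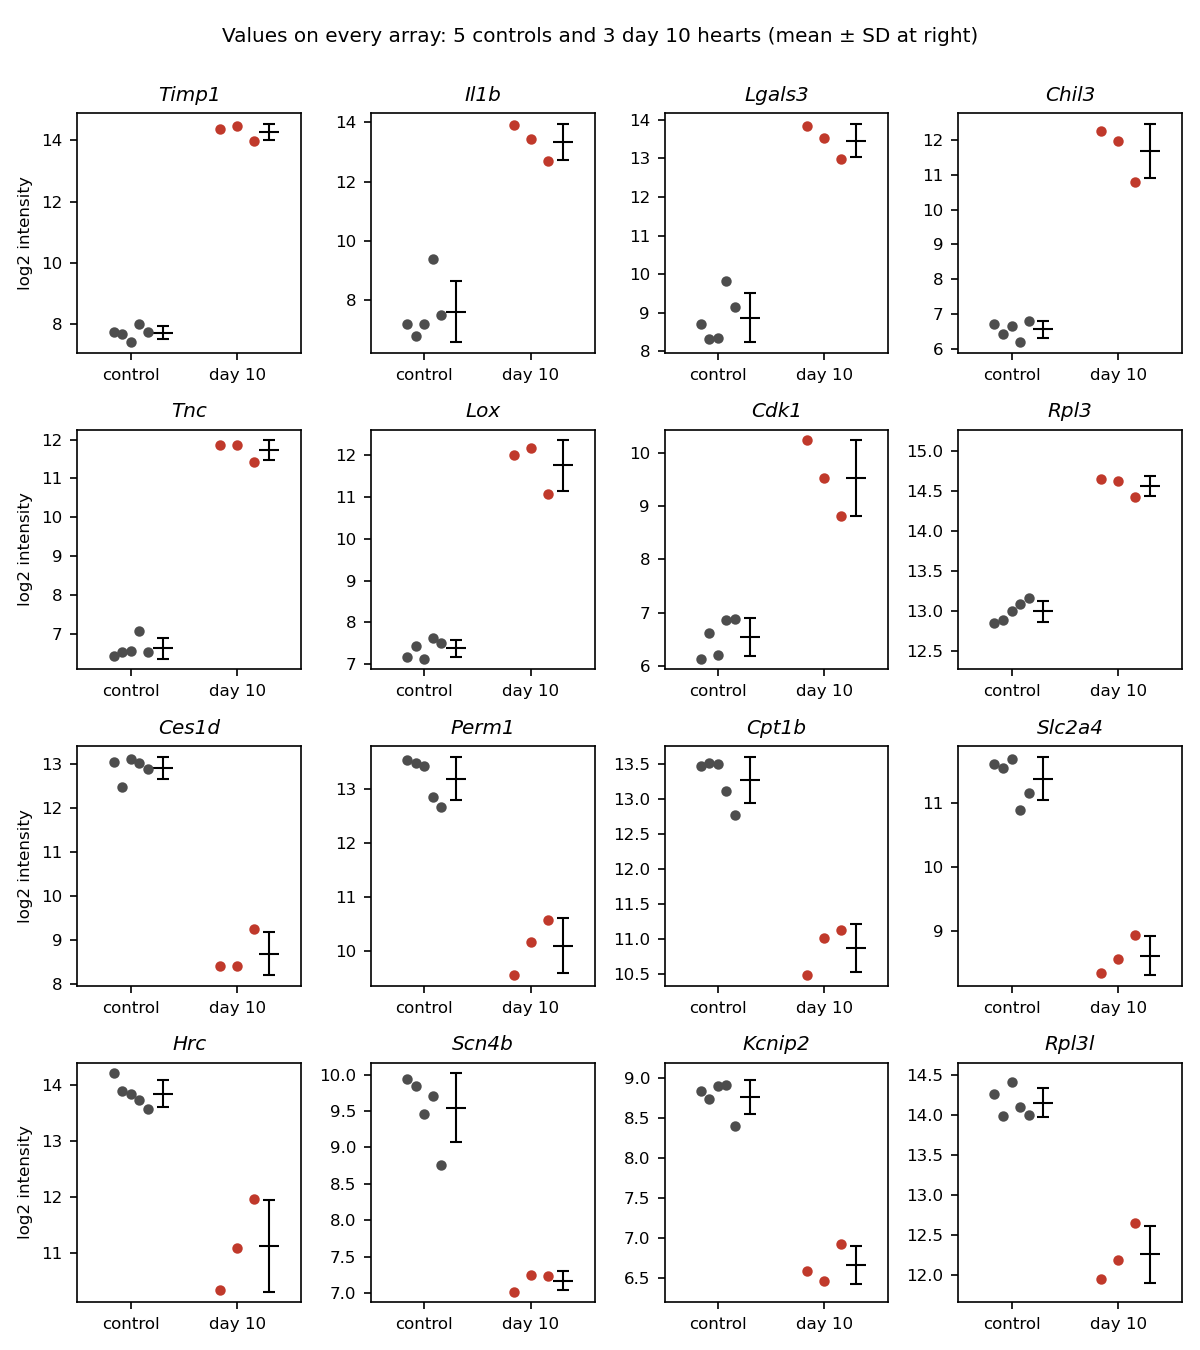
Log2 intensity (y axis) of 16 genes on each control array and each day 10 array, with group mean and SD. Timp1, Il1b, Lgals3, Chil3, Tnc, Lox, Cdk1 and Rpl3 are higher at day 10 and Ces1d, Perm1, Cpt1b, Slc2a4, Hrc, Scn4b, Kcnip2 and Rpl3l lower, with no overlap between the groups in any panel.

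Nearly the whole of fatty acid oxidation was lower at day 10. Of 32 genes of fatty acid uptake and oxidation tested, 31 fell and 0 rose, with a median change of -1.33. Cpt1b, the muscle carnitine palmitoyltransferase that admits long-chain fatty acids to the mitochondrion, read 13.48, 13.52, 13.50, 13.11 and 12.77 in the controls and 10.48, 11.01 and 11.12 at day 10. All 3 day 10 arrays were below all 5 controls, 5.29-fold lower in the mean (log2 -2.40 ± 0.17 SE, adjusted p = 1.27e-10). Its partner on the inner membrane, Cpt2, fell by 2.27. Mlycd, which degrades malonyl-CoA, the inhibitor of Cpt1b, read 11.71, 11.75, 11.91, 11.56 and 11.46 in the controls and 9.04, 9.11 and 9.47 at day 10, a fall of 2.47 ± 0.16 SE (adjusted p = 5.35e-11) with no overlap. Within the beta-oxidation spiral the dehydrogenase genes Acadvl (-1.33) and Acadm (-1.32), the hydroxyacyl dehydrogenase gene Hadh (-1.98) and Decr1 (-2.11), which prepares unsaturated fatty acids, fell. Acot1 (-2.60), an acyl-CoA thioesterase, has a near-identical neighbour, Acot2, from which its probe may not be separable. Uptake genes fell less: Cd36, the fatty acid translocase, by 0.77, Lpl, lipoprotein lipase, by 0.93 and Fabp3, the heart fatty acid binding protein, by 0.54. Fabp4, a fatty acid binding protein of capillary endothelium and fat cells, was the member that did not pass (-0.22, adjusted p = 0.43).

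The genes that store and release triglyceride were lower as well, 16 of 19 with 2 higher and a median of -1.16. Plin5, which ties lipid droplets to mitochondria, read 11.82, 11.54, 11.80, 11.43 and 11.22 in the controls and 8.81, 9.02 and 9.31 at day 10. It fell by 2.52 ± 0.18 SE (adjusted p = 1.48e-10), with every day 10 array below every control. Dgat2, which makes triglyceride, fell by 2.02, and Pnpla2, the lipase that opens its breakdown, by 1.68. Hilpda, a lipase inhibitor induced by hypoxia and lipid, rose by 1.02 (adjusted p = 0.000609). The droplet coat gene Plin2, which is present in most cell types, was 0.48 higher (adjusted p = 0.0158), a call that was lost without day 10 array 1 (0.33, adjusted p = 0.161) and against controls 4 and 5 alone (0.28, adjusted p = 0.314).

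Respiratory chain genes were lower by smaller amounts. In complex I 27 of 32 genes fell and 0 rose (median -0.71), and in complexes II to V 26 of 40 fell and 1 rose (median -0.60). Ndufb10, an accessory subunit of complex I, read 11.88, 11.76, 11.80, 11.97 and 12.13 in the controls and 9.47, 9.78 and 10.42 at day 10, a fall of 2.02 ± 0.16 SE (adjusted p = 1.1e-09). Atp5a1, the alpha subunit of ATP synthase, read 13.46, 13.44, 13.97, 13.39 and 13.48 and 10.96, 11.87 and 12.38 and fell by 1.81 ± 0.24 SE (adjusted p = 1.57e-06). In neither gene did the groups overlap. Cytochrome c (Cycs) fell by 1.66, the complex II anchor Sdhd by 1.59 and the complex III core subunit Uqcrc1 by 1.47. The ATP synthase beta subunit gene Atp5b (-0.19, adjusted p = 0.153) did not pass the test. For cytochrome c oxidase, whose subunits exist in muscle and ubiquitous forms, the muscle form Cox7a1 fell by 1.42 while the muscle form Cox6a2 (-0.20, adjusted p = 0.148) did not pass.

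Of the genes of pyruvate dehydrogenase, the citric acid cycle and malate enzymes, 21 of 28 fell and 3 rose (median -1.06). The pyruvate dehydrogenase subunit gene Dlat fell by 2.37 and the oxoglutarate dehydrogenase gene Ogdh by 2.13. Regulators of pyruvate dehydrogenase moved in different directions: the inhibitory kinases Pdk2 and Pdk4 fell by 2.47 and 1.42, the activating phosphatase Pdp2 fell by 2.36, and the kinase Pdk3 rose by 1.49. Pdk3 read 6.66, 6.56, 6.98, 6.72 and 6.78 in the controls and 8.30, 8.35 and 8.06 at day 10, so that the groups did not overlap (adjusted p = 1.37e-09). Breakdown of branched-chain amino acids and ketone bodies showed 16 falls and 1 rise among 20 genes (median -1.03). Bckdhb, a subunit of the branched-chain ketoacid dehydrogenase, fell by 2.26, the mitochondrial phosphatase that activates that enzyme, Ppm1k, by 1.84, and the ketone-using enzyme gene Bdh1 by 1.62. The rise was in Bcat1, the cytosolic branched-chain aminotransferase, which read 6.83, 6.70, 6.77, 7.12 and 7.08 in the controls and 9.32, 9.24 and 8.76 at day 10 (log2 2.21 ± 0.23 SE, adjusted p = 3.44e-08). Its mitochondrial counterpart Bcat2 fell by 0.90.

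Glucose transport and glycolysis were split, with 8 of 24 genes higher and 9 lower and a median of -0.07. Without day 10 array 1 the number higher was 5. The insulin-responsive transporter gene Slc2a4 read 11.61, 11.56, 11.70, 10.90 and 11.16 in the controls and 8.34, 8.55 and 8.94 at day 10, 6.86-fold lower (log2 -2.78 ± 0.19 SE, adjusted p = 1.27e-10). The ubiquitous transporter gene Slc2a1 read 9.51, 9.28, 9.32, 9.37 and 9.18 in the controls and 10.54, 10.54 and 10.54 at day 10, 2.32-fold higher (adjusted p = 1.03e-06). Neither pair of groups overlapped. Muscle forms of glycolytic enzymes fell, phosphofructokinase Pfkm by 2.19, the heart bifunctional enzyme Pfkfb2 by 2.53 and phosphoglycerate mutase Pgam2 by 1.66. The ubiquitous mutase Pgam1 rose by 0.96 and Hk3, a hexokinase of myeloid cells, by 1.61. Gapdh (0.17, adjusted p = 0.247) and Ldha (0.29, adjusted p = 0.0969) did not pass the test. In the creatine shuttle, which carries high-energy phosphate from mitochondria to myofibrils, 8 of 14 genes fell and 2 rose, with muscle creatine kinase Ckm at -1.47 and brain creatine kinase Ckb at 0.79 (adjusted p = 0.00297).

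The regulators of this metabolism were lower too: 14 of 19 fell and 1 rose (median -0.91). Perm1 read 13.55, 13.49, 13.43, 12.86 and 12.67 in the controls and 9.55, 10.16 and 10.58 at day 10. The groups were 8.61-fold apart without overlap (adjusted p = 2.37e-10). Ppargc1b (-1.90) and Ppargc1a (-1.87), the PGC-1 coactivators, fell, as did the estrogen-related receptor genes Esrrb (-1.83) and Esrra (-1.19) and the retinoid receptor gene Rxrg (-2.27). Ppargc1a read 12.48, 11.28, 12.22, 10.32 and 10.35 in the controls, of which controls 4 and 5 were the lowest, and 9.00, 9.44 and 9.94 at day 10. Against controls 4 and 5 alone the fall of Ppargc1a was 0.88 and did not pass (adjusted p = 0.0653). Tfam, the packaging factor of mitochondrial DNA, fell by 0.69.

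**Figure D3:**
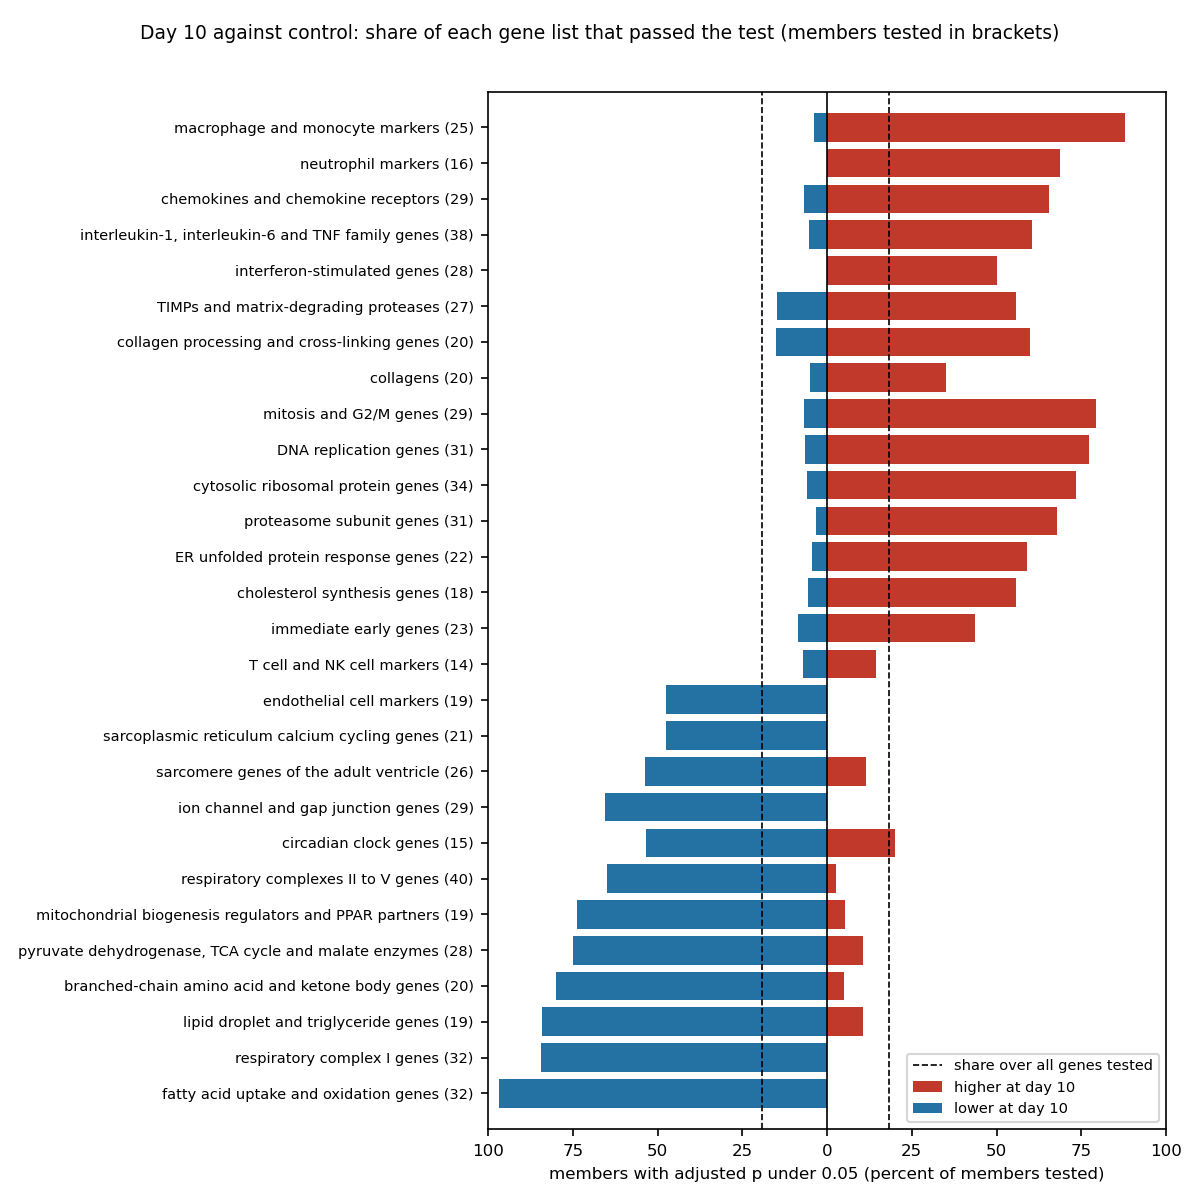
Percent of the tested members of 28 gene lists that were higher (right) and lower (left) at day 10 than in control at an adjusted p under 0.05. Dashed lines mark the shares over all 12938 genes, 18.2% higher and 19.2% lower, and the bars for fatty acid oxidation (31 of 32 lower) and macrophage markers (22 of 25 higher) are the longest on their sides.

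Genes of the contractile apparatus and of wall stress changed in part. Of 26 sarcomere genes of the adult ventricle 14 fell and 3 rose (median -0.66), with 9 falls against controls 4 and 5 alone. Tnni3, cardiac troponin I, read 13.15, 12.88, 13.06, 12.92 and 13.17 in the controls and 11.23, 11.41 and 12.04 at day 10. It fell by 1.48 ± 0.15 SE (adjusted p = 2.08e-08), with all 3 arrays below the controls. Titin (Ttn) fell by 1.52 (-0.83 against controls 4 and 5 alone), its partner Tcap by 1.37, cardiac myosin binding protein Mybpc3 by 1.18 and alpha myosin heavy chain Myh6 by 1.37. Tropomyosin 1 (Tpm1) read 10.69, 10.75, 10.48, 10.60 and 10.89 in the controls and 12.67, 12.50 and 12.08 at day 10 and rose by 1.74 ± 0.14 SE (adjusted p = 1.4e-09). The intermediate filament gene Des rose by 0.73 and Csrp3, a Z-disc protein, by 0.64. Troponin C (Tnnc1, 0.07), Myl2 (0.14) and cardiac actin (Actc1, 0.00) did not pass, the latter 2 close to the ceiling of the scale. Of 15 markers of ventricular cardiomyocytes 7 fell and 1 rose, and of 14 atrial markers 5 fell and 2 rose, with 2 falls against controls 4 and 5 alone and 3 without day 10 array 2.

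Natriuretic peptides and other wall-stress genes had 7 rises and 4 falls among 18. Nppb, the B-type natriuretic peptide gene, read 13.34, 14.25, 12.95, 13.07 and 13.18 in the controls and 15.64, 15.60 and 15.67 at day 10, which is at the ceiling. Nppa, the atrial natriuretic peptide gene, read 13.44, 15.24, 13.38, 13.50 and 13.84 and 15.63, 15.68 and 15.63. Their rises, 2.28 and 1.77, may be understated for that reason. Fhl1, a LIM protein of the sarcomere that takes part in stretch signalling, rose by 2.29, from 11.92, 12.24, 12.01, 11.99 and 11.80 in the controls to 14.20, 14.13 and 14.50 (adjusted p = 4.41e-11). Uchl1, a ubiquitin hydrolase, rose by 2.08 and the calcineurin inhibitor Rcan1 by 1.17. Corin, the protease that activates pro-ANP, fell by 1.08 and the natriuretic peptide receptor gene Npr2 by 1.26. The fetal myosin gene Myh7 was not higher. It read 8.39, 10.02, 8.23, 7.92 and 7.25 in the controls and 6.99, 7.11 and 7.95 at day 10, a difference of -1.01 (adjusted p = 0.0427), with 2 of 3 arrays below every control. Control 2 was the highest in Myh7, and also in Nppa, Myl7 and the atrial sarcolipin gene Sln (9.25, 10.56, 7.15, 8.58 and 8.23). The Myh7 call was lost without control 1, 2 or 3 or day 10 array 1 or 2 (adjusted p from 0.0538 to 0.179) and against controls 4 and 5 alone (-0.24, adjusted p = 0.668). Skeletal actin Acta1 (-0.67, adjusted p = 0.222) did not pass.

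Of 14 skeletal muscle troponin, tropomyosin and myosin genes, 5 rose and 1 fell. Tnnt1, slow skeletal troponin T, read 9.71, 9.13, 9.73, 9.56 and 9.90 in the controls and 12.42, 12.84 and 13.53 at day 10, 10.0-fold higher (log2 3.33 ± 0.27 SE, adjusted p = 1.43e-09). Tpm3, slow tropomyosin, rose by 2.05 on 1 of its 4 probes. The fast troponins Tnnt3 and Tnni2 rose by 1.38 and 1.15. Fast myosin genes Myh1 (-0.07) and Myl1 (-0.09) did not pass the test.

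Calcium cycling genes of the sarcoplasmic reticulum showed 10 falls and 0 rises among 21 (median -0.18), with 6 falls against controls 4 and 5 alone. Hrc, the histidine-rich calcium binding protein of the reticulum, read 14.20, 13.88, 13.83, 13.73 and 13.56 in the controls and 10.33, 11.08 and 11.96 at day 10. It was 6.58-fold lower without overlap (log2 -2.72 ± 0.25 SE, adjusted p = 7.57e-09). Ryr2, the calcium release channel, fell by 1.34 (-0.78 against controls 4 and 5 alone), phospholamban (Pln) by 1.20 and the calcium pump Atp2a2 by 0.76. The sodium-calcium exchanger gene Slc8a1 (0.10, adjusted p = 0.741) and S100a1 (-0.17), which enhances the pump, did not pass.

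Ion channel genes moved in 1 direction, with 19 of 29 lower and 0 higher (median -0.58). Against controls 4 and 5 alone 12 were lower and 1 was higher. Kcnip2, the partner subunit of the transient outward potassium current, read 8.83, 8.74, 8.90, 8.91 and 8.40 in the controls and 6.58, 6.46 and 6.92 at day 10, a fall of 2.10 ± 0.18 SE (adjusted p = 3.03e-09). Kcnd2, a pore subunit of that current, fell by 1.65. Scn4b, a sodium channel subunit, read 9.94, 9.85, 9.46, 9.71 and 8.76 and 7.02, 7.25 and 7.24 and fell by 2.37 ± 0.29 SE (adjusted p = 4.52e-07). The groups did not overlap in either. Hcn2, a pacemaker channel, fell by 2.06, the background channel Kcnk3 by 2.05 and the potassium channel modifier Kcnv2 by 2.30. The L-type calcium channel gene Cacna1c (-0.32, adjusted p = 0.0617) did not pass. Gja1, the ventricular gap junction gene connexin 43, read 14.38, 14.25, 14.36, 13.91 and 14.03 in the controls and 14.10, 14.06 and 14.35 at day 10, with overlapping groups and a difference of -0.02 (adjusted p = 0.96).

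Among adrenergic signalling genes 6 of 18 fell and 3 rose, led by the adenylyl cyclase Adcy6 (-1.72, and -1.11 against controls 4 and 5 alone) and the receptor kinase Grk5 (1.22). Of 23 cardiac transcription factors 7 fell and 0 rose (median -0.41). The number lower was 13 against controls 1 to 3, 5 against controls 4 and 5 and 12 without control 5. Irx4, a ventricular identity factor, fell by 1.26 and Prox1, a homeobox factor of the sarcomere programme, by 1.39. Srf (-0.45), Mef2c (-0.45) and Gata6 (-0.34) did not pass the test.

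Macrophage and neutrophil transcripts were much higher. Of 25 macrophage and monocyte markers tested, of 32 listed, 22 rose and 1 fell, with a median of 2.20. The mean of the list was 8.18 to 9.15 on the control arrays, higher in controls 4 and 5 than in the other controls, and 10.59 to 11.04 at day 10. Lgals3, galectin-3, read 8.70, 8.32, 8.35, 9.82 and 9.16 in the controls and 13.85, 13.54 and 12.99 at day 10. Every day 10 array was above every control (log2 4.59 ± 0.32 SE, adjusted p = 1.38e-10). The monocyte and macrophage genes Ms4a6d and Lyz2 rose by 4.15 and 3.11, Trem2, a lipid receptor of macrophages, by 2.68 and the mannose receptor gene Mrc1 by 2.20. Adgre1, which encodes the F4/80 antigen, rose by 1.93 and the chemokine receptor gene Cx3cr1 by 1.53. The 3 members that did not rise were Cd163, Folr2 and Timd4. Lyve1 rose by 0.53 (adjusted p = 0.0326), a call lost without control 1, 2 or 3 or day 10 array 2 or 3 and against controls 4 and 5 alone (0.18, adjusted p = 0.616). Cd163 (-0.32, adjusted p = 0.429) and Folr2 (0.37, adjusted p = 0.329) did not pass, and Timd4 fell by 0.40 (adjusted p = 0.0285), a call that was lost without control 1 or 4 or day 10 array 1 or 3.

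Of 16 neutrophil markers 11 rose and 0 fell (median 1.61). S100a8, a calcium binding protein abundant in neutrophils and monocytes, read 10.03, 8.98, 9.54, 8.83 and 7.66 in the controls and 12.70, 12.74 and 12.11 at day 10 (log2 3.50 ± 0.63 SE, adjusted p = 7.44e-05). Chil3, a chitinase-like protein of macrophages and neutrophils, read 6.71, 6.43, 6.64, 6.19 and 6.78 and 12.27, 11.98 and 10.80 and rose by 5.14 ± 0.51 SE from near the floor of the array. The groups did not overlap in either gene. Lcn2, lipocalin 2, rose by 3.93 and the decoy receptor gene Il1r2 by 2.50. The granule genes Ngp (0.00), Ltf (-0.03) and Camp (-0.04), which neutrophil precursors express, did not pass and read 6.47 to 6.87, 6.26 to 6.60 and 6.06 to 7.01 at day 10.

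Markers of lymphocytes, dendritic cells and mast cells rose in shares near or somewhat below the 18.2% of all genes. Of 14 T and natural killer cell markers 2 rose (14.3%) and 1 fell. Of 8 B cell markers 1 rose (12.5%), and of 13 dendritic and mast cell markers 2 rose (15.4%). Cd3e, a T cell receptor subunit (0.18, adjusted p = 0.417), and the B cell receptor subunit gene Cd79a (-0.05, adjusted p = 0.853) did not pass. Of 9 markers of Schwann, fat, mesothelial and red blood cells 1 rose and 1 fell. The natural killer receptor gene Klrd1 rose by 1.22, from 6.89, 6.15, 6.10, 6.78 and 6.25 in the controls to 7.68, 7.56 and 7.71 at day 10 (adjusted p = 1.41e-05).

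Cytokines and chemokines followed the myeloid markers in direction. Of 29 chemokines and receptors 19 rose and 2 fell (median 1.40), and of 38 genes of the interleukin-1, interleukin-6 and TNF families 23 rose and 2 fell (median 0.95). The part of cell number in these rises was not tested. Ccl7, a monocyte attractant, read 7.49, 6.95, 7.33, 10.32 and 8.19 in the controls and 12.09, 11.38 and 11.82 at day 10 (log2 3.71 ± 0.49 SE, adjusted p = 1.58e-06). Control 4 was the highest control for Ccl7, as for Il1b and the neutrophil attractant Cxcl1, which rose by 3.80. Ccl4, Ccl2 and Ccl9 rose by 3.97, 3.15 and 3.39, and Ccl12 by 3.48 (2.27 against controls 4 and 5 alone). Osm, oncostatin M, an interleukin-6 family cytokine of myeloid cells, read 6.10, 6.23, 6.36, 7.27 and 6.06 and 10.49, 10.39 and 9.52 and rose by 3.73 (adjusted p = 8.12e-11). Its receptor gene Osmr rose by 1.68 and the feedback inhibitor Socs3 by 3.61. Tnf rose by 3.71 and Tnfrsf12a, the receptor for TWEAK, by 2.39. Cxcl12, which retains progenitor cells and lymphocytes, fell by 0.79, and cardiotrophin 1 (Ctf1) by 0.91. Stat3 (0.07) and the receptor gene Il1r1 (-0.32) did not pass.

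Counts of interferon-stimulated and antigen presentation genes depended on which arrays were used. Of 28 interferon-stimulated genes 14 rose, but 6 rose without day 10 array 1 and 5 against controls 4 and 5 alone. Oasl2, an antiviral gene of this group, read 8.52, 8.84, 8.66, 9.22 and 9.43 in the controls and 11.52, 9.40 and 10.20 at day 10, so that array 1 was far above the other two and array 2 lay within the controls. Its difference of 1.44 was 0.87 without array 1. Isg15 (0.33, adjusted p = 0.371) did not pass. Of 21 MHC and antigen presentation genes 10 rose, 8 without day 10 array 1 or 3 and 3 against controls 4 and 5 alone. H2-DMa, which loads peptides onto MHC class II, rose by 1.64 and the costimulator gene Cd86 by 1.37, while H2-K1 (-0.01), a class I chain, did not pass. Probes of the H2 genes may not separate close copies. Of 18 complement genes 6 rose and 3 fell, and the C1q chains C1qb (2.17), C1qc (1.82) and C1qa (1.22), which macrophages make, led the rises. Genes of alternative activation and clearance of dying cells had 16 rises and 5 falls among 27, and they did not move as a block. Arg1 and Igf1 rose by 5.23 and 1.62, whereas Retnla, another marker of alternatively activated macrophages, read 7.66, 7.43, 8.42, 8.49 and 8.90 in the controls and 6.53, 6.55 and 7.06 at day 10 and fell by 1.46 (adjusted p = 0.000608). The bridging molecule Gas6 fell by 0.64.

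**Figure D4:**
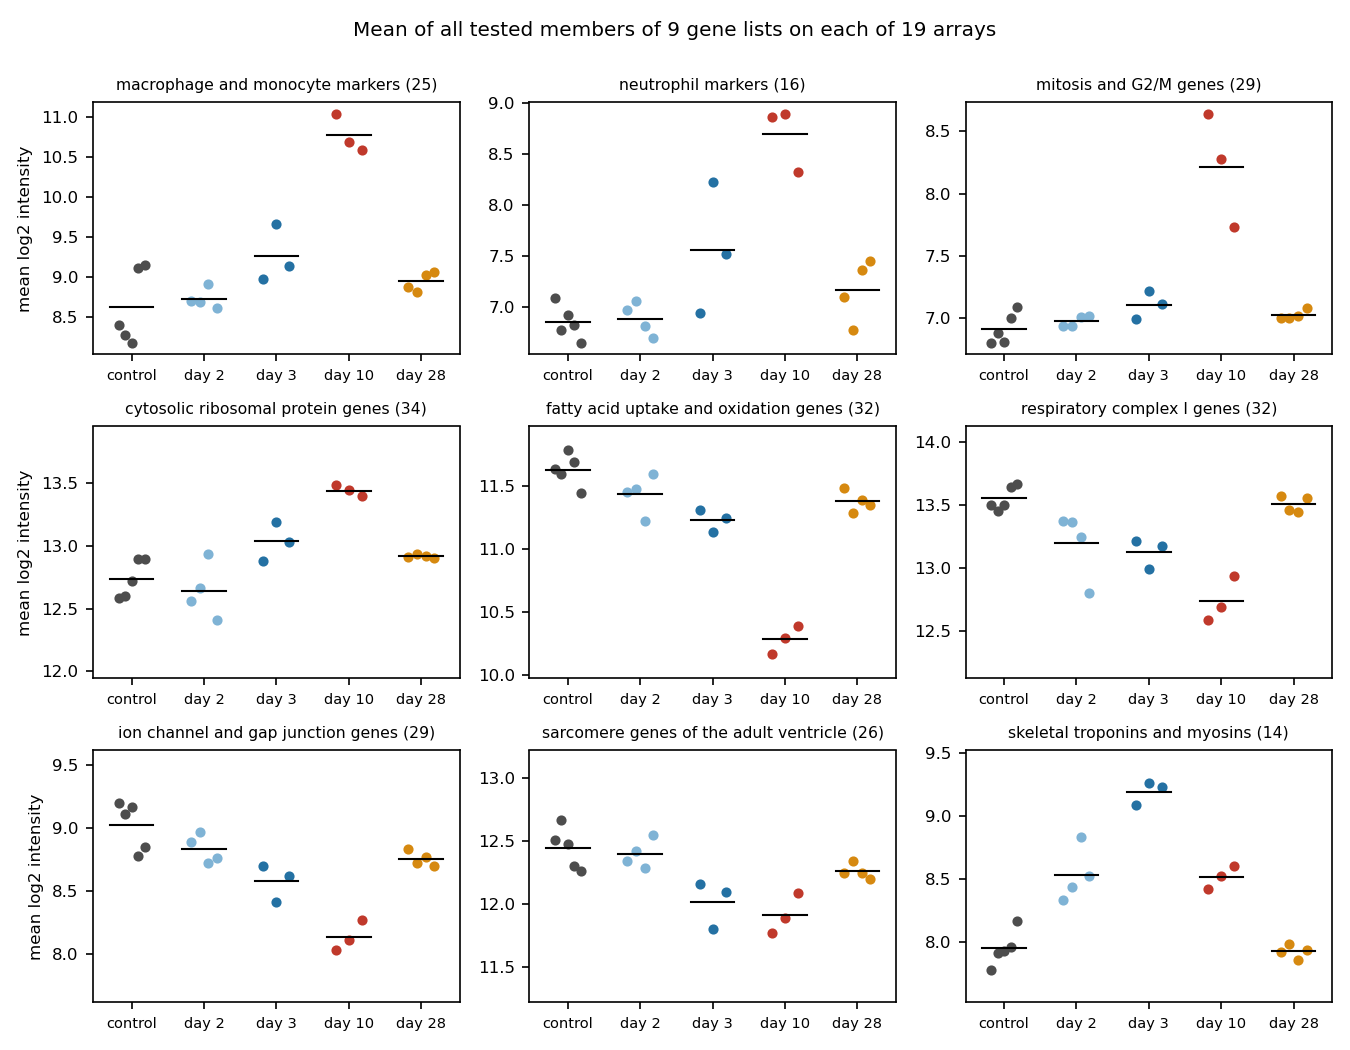
Mean log2 intensity of the tested members of 9 gene lists (y axis) on each of the 19 arrays, by group on the x axis. The macrophage, neutrophil and mitosis lists are highest at day 10 and the fatty acid oxidation and complex I lists lowest, and controls 4 and 5 lie above controls 1 to 3 in the macrophage panel.

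Of 20 collagens 7 rose and 1 fell (median 0.09), and of 20 collagen processing genes 12 rose and 3 fell (median 0.79). Col1a1, the main fibrillar collagen chain, read 8.82, 9.54, 9.14, 9.08 and 9.51 in the controls and 11.22, 11.58 and 10.77 at day 10 (log2 1.97 ± 0.24 SE, adjusted p = 4.58e-07). Col3a1 and Col5a1 rose by 1.82 and 1.63, and the basement membrane chain Col4a1 by 0.66. Col6a1 (-0.13, adjusted p = 0.606) and Col15a1 (0.14, adjusted p = 0.657) did not pass. Lox, lysyl oxidase, which cross-links collagen and elastin, read 7.18, 7.44, 7.14, 7.63 and 7.51 and 12.00, 12.17 and 11.06, 20.6-fold higher (log2 4.37 ± 0.37 SE, adjusted p = 2.31e-09), and Loxl1 and Loxl2 rose by 1.50 and 1.50. The prolyl hydroxylase gene P4ha1, needed for a stable collagen helix, fell by 1.24.

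The inhibitors of matrix proteases diverged. While Timp1 rose, Timp3 read 12.39, 12.30, 12.23, 12.43 and 12.28 in the controls and 10.93, 11.49 and 11.52 at day 10 and fell by 1.01 ± 0.15 SE (adjusted p = 8.41e-06), and Timp2 fell by 0.80. Timp4 (-0.35, adjusted p = 0.202) did not pass. Over the whole list of 27 inhibitors and proteases 15 rose and 4 fell. The stromelysin gene Mmp3 rose by 2.61, the membrane-type metalloproteinase Mmp14 by 1.44, the macrophage cathepsin Ctss by 2.13 and the aggrecanase Adamts4 by 1.45, while the gelatinase Mmp2 fell by 0.93.

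Among 32 matricellular and provisional matrix genes 14 rose and 6 fell. Tnc, tenascin C, a glycoprotein of healing matrix, read 6.43, 6.55, 6.56, 7.09 and 6.55 in the controls and 11.87, 11.87 and 11.43 at day 10 (log2 5.09 ± 0.45 SE, adjusted p = 4.27e-09). Ccn2, connective tissue growth factor, rose by 2.66, Thbs1 by 2.12 and Mfap5, of elastic microfibrils, by 2.50. Fbln1, fibulin 1, read 11.38, 11.53, 11.34, 11.28 and 11.32 and 8.76, 8.92 and 9.18 and fell by 2.41 ± 0.20 SE (adjusted p = 1.95e-09) on all 3 of its probes. Laminin alpha 2 (Lama2), which anchors muscle cells to their basement membrane, fell by 1.29. Of the TGF-beta family, 10 of 27 genes rose and 3 fell. Tgfb2 rose by 0.86 and Tgfb1 did not pass (-0.07, adjusted p = 0.782). The activin subunit gene Inhba rose by 1.78, the receptor gene Tgfbr1 by 1.12, Fstl1, a secreted follistatin-like protein, by 2.00 and the TGF-beta-induced matrix gene Tgfbi by 3.06. The coreceptor gene Tgfbr3 fell by 1.09.

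Markers of stromal and vascular cells differed by list. Of 15 fibroblast markers 3 rose and 4 fell (median 0.02), and the defining genes Pdgfra (0.21, adjusted p = 0.34), Tcf21 (0.22, adjusted p = 0.493) and Dcn (-0.24, adjusted p = 0.18) did not pass. The resting fibroblast genes Pi16 and Gsn fell by 1.64 and 1.73. Of 9 myofibroblast markers tested, of 12 on the array, 6 rose and 1 fell. Among the rises were Tnc and Lox, with smooth muscle actin Acta2 at 1.26 and the homeobox gene Meox1 at 1.98. The myofibroblast markers Postn, Cthrc1 and Cilp were too dim for the intensity filter and were not tested. Of 19 endothelial markers 9 fell and 0 rose (median -0.29). The water channel gene Aqp1 read 13.34, 13.25, 13.22, 12.94 and 13.43 in the controls and 11.14, 11.44 and 12.02 at day 10 and fell by 1.70 ± 0.16 SE (adjusted p = 9.94e-09). The receptor genes Flt1 and Tie1 fell by 1.14 and 1.08, whereas Pecam1 (-0.26, adjusted p = 0.22) and Vwf (0.10, adjusted p = 0.661) did not pass. Of 16 smooth muscle and pericyte markers 8 fell and 4 rose. The pericyte genes Abcc9, Rgs5 and Vtn fell by 2.01, 1.41 and 1.34, and Pdgfrb (-0.18, adjusted p = 0.344) did not pass. Growth factors of vessels that heart muscle releases fell, Vegfa by 1.68 and Vegfb by 1.74, with Vegfa at 13.17, 12.81, 12.88, 11.90 and 11.64 in the controls and 10.40, 10.99 and 11.02 at day 10 (adjusted p = 2.11e-05). Against controls 4 and 5 alone the Vegfa difference was -0.97. Endothelin 1 (Edn1) rose by 1.14 and Hif1a by 0.79, in a list of 27 angiogenic and hypoxia genes with 5 rises and 7 falls.

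Most tested genes of DNA replication and mitosis rose. Of 31 replication genes tested, of 34 on the array, 24 rose and 2 fell (median 1.03). Of 29 mitosis and G2/M genes tested, of 41 on the array, 23 rose and 2 fell (median 1.28). The other members on the array were too dim for the intensity filter. A gene dim in control could pass that filter through its day 10 values, so these shares hold for the tested members only. Cdk1, the kinase that drives entry into mitosis, read 6.14, 6.62, 6.20, 6.86 and 6.89 in the controls and 10.23, 9.53 and 8.82 at day 10, 7.92-fold higher (log2 2.99 ± 0.22 SE, adjusted p = 3.26e-10). Top2a, the topoisomerase of dividing cells, read 6.62, 6.51, 6.67, 6.96 and 6.94 and 9.85, 9.26 and 8.67 and rose by 2.52 ± 0.19 SE (adjusted p = 3.73e-10). In both genes all 3 day 10 arrays were above every control. Prc1, which organises the spindle midzone, rose by 2.82, the cytokinesis gene Anln by 2.73 and Cdc20, an activator of the anaphase-promoting complex, by 1.35. Mcm5 and Mcm6, subunits of the replicative helicase, rose by 2.44 and 2.31, the methylation maintenance factor Uhrf1 by 2.87 and thymidylate synthase Tyms by 2.62. Pcna (0.49, adjusted p = 0.096) and the cyclin gene Ccne1 (0.05, adjusted p = 0.858) did not pass. Which cells of the tissue divide cannot be read from these values, and macrophage markers rose on the same arrays. The part of those cells in the rise was not tested.

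The promoters of these genes are shown because most tested members of each list rose. In mouse and human cells many late cell cycle genes carry the cell cycle homology element (core TTTGAA) beside CCAAT boxes, and many replication genes carry sites of the E2F factors. The windows are from RefSeq (GRCm38.p6), 250 bases before to 50 bases after the annotated start, 5′ to 3′ on the gene's strand. Both strands were searched for TTTGAA, for CCAAT and for 3 E2F forms. These are TTGGCGC, its variant with other central letters, TTCCCGC, and the form TTCGCGC, and their matches can overlap each other. In the 4 mitosis genes below capitals mark TTTGAA and CCAAT on either strand. The windows lie at chr10:69352863-69353162 (- strand) for Cdk1, chr7:80294201-80294500 (+) for Prc1, chr11:99024140-99024439 (-) for Top2a and chr4:118437294-118437593 (-) for Cdc20.
Cdk1: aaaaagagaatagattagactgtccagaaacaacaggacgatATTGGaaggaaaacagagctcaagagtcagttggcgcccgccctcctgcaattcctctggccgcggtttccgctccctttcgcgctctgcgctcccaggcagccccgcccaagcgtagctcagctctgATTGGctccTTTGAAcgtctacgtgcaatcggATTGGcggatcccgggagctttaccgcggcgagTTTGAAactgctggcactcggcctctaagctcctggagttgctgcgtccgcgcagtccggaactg
Prc1: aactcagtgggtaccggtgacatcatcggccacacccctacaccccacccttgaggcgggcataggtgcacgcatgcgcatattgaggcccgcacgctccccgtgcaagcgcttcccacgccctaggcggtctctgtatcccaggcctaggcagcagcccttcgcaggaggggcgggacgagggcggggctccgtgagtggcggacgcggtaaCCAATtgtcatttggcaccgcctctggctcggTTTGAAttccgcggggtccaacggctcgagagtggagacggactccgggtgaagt
Top2a: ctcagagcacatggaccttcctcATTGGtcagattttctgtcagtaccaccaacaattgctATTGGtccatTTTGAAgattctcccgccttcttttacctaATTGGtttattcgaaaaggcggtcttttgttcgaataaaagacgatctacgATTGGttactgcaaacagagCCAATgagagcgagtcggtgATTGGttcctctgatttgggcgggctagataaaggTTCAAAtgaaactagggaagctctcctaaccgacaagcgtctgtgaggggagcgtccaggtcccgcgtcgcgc
Cdc20: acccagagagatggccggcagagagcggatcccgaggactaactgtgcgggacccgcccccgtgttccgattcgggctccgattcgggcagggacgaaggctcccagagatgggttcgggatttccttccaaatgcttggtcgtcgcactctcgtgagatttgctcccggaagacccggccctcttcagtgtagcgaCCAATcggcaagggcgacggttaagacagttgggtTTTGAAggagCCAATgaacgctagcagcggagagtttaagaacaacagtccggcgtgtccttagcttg
In the replication genes capitals mark the E2F forms. The windows lie at chr8:75109259-75109558 (+) for Mcm5 and chr1:128359656-128359955 (-) for Mcm6.
Mcm5: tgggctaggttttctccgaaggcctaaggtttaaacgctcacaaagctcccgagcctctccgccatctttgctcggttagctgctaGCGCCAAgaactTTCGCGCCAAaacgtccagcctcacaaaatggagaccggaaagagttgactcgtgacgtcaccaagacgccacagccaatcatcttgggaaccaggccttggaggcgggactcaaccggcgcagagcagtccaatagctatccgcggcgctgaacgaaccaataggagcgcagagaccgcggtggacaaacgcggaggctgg
Mcm6: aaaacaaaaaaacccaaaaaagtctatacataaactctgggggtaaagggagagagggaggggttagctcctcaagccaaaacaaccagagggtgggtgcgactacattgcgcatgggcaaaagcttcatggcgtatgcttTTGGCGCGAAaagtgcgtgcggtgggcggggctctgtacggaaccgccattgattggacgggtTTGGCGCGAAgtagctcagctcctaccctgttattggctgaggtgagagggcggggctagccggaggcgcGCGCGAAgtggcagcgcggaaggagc
Cdk1 holds 2 matches to TTTGAA and 3 to CCAAT, Top2a 2 and 6, Cdc20 1 and 2, and Prc1 1 and 1. Mcm5 holds 3 matches to the E2F forms and Mcm6 5. TTTGAA was present in 18 of the 24 mitosis genes tested that have a window (75%), in 4 of 27 replication genes (14.8%) and in 1656 of 10404 genes tested (15.9%). The E2F forms were present in 1 of 24 mitosis genes (4.17%), which is Cdk1, in 15 of 27 replication genes (55.6%) and in 1483 of 10404 (14.3%). CCAAT was present in 66.7%, 51.9% and 42.9% of the same genes. A match is a sequence description and does not show that a factor binds there.

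Of 16 cell cycle inhibitors, D cyclins and related regulators 6 rose and 2 fell (median 0.15), with 1 fall without control 1, 2 or 3 or day 10 array 1 or 2. Cdkn1a, which encodes p21, read 9.90, 9.91, 9.52, 9.06 and 8.21 in the controls and 11.70, 11.85 and 11.19 at day 10 and rose by 2.26 (adjusted p = 2.25e-05). Cdkn1c, which encodes p57, fell by 1.49. Of 32 p53 target and DNA damage genes 6 rose and 7 fell: the stress genes Gadd45g and Gadd45b rose by 2.82 and 2.16, while Gadd45a fell by 1.45, Sesn1 by 1.80 and Ccng1 by 1.19. Mdm2 (0.14, adjusted p = 0.456) did not pass. Among 25 genes of the Bcl2 family and the caspases 10 rose and 1 fell, with the inflammatory caspases Casp4 at 1.66 and Casp1 at 1.58 (1.02 against controls 4 and 5 alone), Casp8 at 1.46 and Bid, its substrate, at 1.53.

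Ribosomal, proteasome and lysosomal genes rose in more than they fell, and the reverse held for atrophy and autophagy genes. Of 34 cytosolic ribosomal protein genes 25 rose and 2 fell (median 0.90), and of 31 proteasome subunits 21 rose and 1 fell (median 0.61). Rpl3, a protein of the large ribosomal subunit, read 12.84, 12.88, 12.99, 13.08 and 13.16 in the controls and 14.65, 14.62 and 14.42 at day 10 and rose by 1.57 ± 0.15 SE (adjusted p = 9.1e-09). Its muscle paralogue Rpl3l read 14.27, 13.99, 14.41, 14.10 and 14.00 and 11.95, 12.19 and 12.65 and fell by 1.89 ± 0.15 SE (adjusted p = 1.25e-09). Neither gene's groups overlapped. Rps6 rose by 1.70 and Rplp0 by 1.51, and the proteasome genes Psma5 and Psmb3 by 1.45 and 1.06. Ribosomal protein genes have many processed copies in the genome, which their probes may not separate. The ubiquitin ligases of muscle atrophy fell, Trim63 by 1.87 and Fbxo32 by 1.65, within a list of 24 atrophy and autophagy genes with 11 falls and 4 rises. Lysosomal genes rose in 17 of 30 and fell in 2, with cathepsin C (Ctsc) at 1.82 and Gusb at 1.54.

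Of 22 genes of the endoplasmic reticulum stress response 13 rose and 1 fell (median 0.55). Calreticulin (Calr) rose by 1.24, the disulphide isomerase P4hb by 1.25 and Xbp1 by 1.15, but Hspa5 (-0.06, adjusted p = 0.853), the main chaperone of that compartment, and the death factor Ddit3 (-0.46, adjusted p = 0.126) did not pass. Herpud1, of the degradation complex, read 13.91, 13.66, 13.73, 13.50 and 13.39 in the controls and 11.89, 11.73 and 11.78 at day 10 and fell by 1.84 (adjusted p = 1.34e-08). The amino acid response list showed 10 rises and 7 falls among 27. Psat1, of serine synthesis, read 7.51, 7.59, 7.41, 7.71 and 7.51 and 10.77, 10.51 and 9.90 and rose by 2.85 ± 0.18 SE (adjusted p = 4.41e-11). Slc7a5, a transporter of large amino acids, rose by 1.97 and Asns by 1.67, while Vldlr fell by 1.98 and Chac1, which degrades glutathione, by 1.12. Of the oxidative stress genes 15 of 29 rose, 9 of them against controls 4 and 5 alone, and 8 fell. Hmox1, heme oxygenase 1, rose by 2.50 and the phagocyte oxidase subunit Ncf4 by 2.51, and mitochondrial superoxide dismutase Sod2 fell by 1.20.

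Of 25 heat shock genes 3 were higher (12%) and 7 lower (28%), beside 18.2% and 19.2% of all genes. The number lower was 4 without day 10 array 1 or 2 and 1 against controls 4 and 5 alone. Hspb1 rose by 1.12 and the co-chaperone Fkbp4 fell by 1.99. Of 18 cholesterol synthesis genes 10 rose and 1 fell (median 0.54), with squalene epoxidase Sqle at 2.58 and Msmo1 at 2.15, and Insig1 (-0.23, adjusted p = 0.311) not passing. Of 15 clock genes 8 fell and 3 rose. Dbp, an output gene of the clock, read 11.73, 11.81, 12.37, 12.43 and 12.86 in the controls and 9.83, 9.52 and 9.79 at day 10 and fell by 2.53 ± 0.31 SE (adjusted p = 5.63e-07), and Nr1d2, a clock repressor, by 1.87. The labels do not give the hour of sampling. Of 21 insulin, IGF and renin-angiotensin genes 9 fell and 4 rose, with Grb14, an adaptor of the insulin receptor, at -1.96 and the angiotensin receptor Agtr1a at -1.13. The number higher was 2 without control 3 and 1 without day 10 array 2.

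Day 10 was then compared directly with day 3, within the days of injection, to see which changes belonged to the later time. In this test 2108 genes (16.3%) were higher at day 10 than at day 3 and 2144 (16.6%) lower. Macrophage markers were higher at day 10 in 19 of 25 and lower in 1 (median 1.63), replication genes in 25 of 31 and 0 (median 1.03), and mitosis genes in 22 of 29 and 0 (median 1.07). Cdk1 was 2.64 higher (adjusted p = 2.22e-08) and Il1b 5.07 (adjusted p = 2.15e-07). Against control, these 3 lists had 8, 5 and 3 members higher and 0, 2 and 0 lower at day 3, where 15.1% of all genes were higher and 14.8% lower. Fatty acid genes were lower at day 10 than at day 3 in 25 of 32 and higher in 0 (median -0.86). Part of their fall was present at day 3, when 14 of the 32 were lower than in control and 1 higher (median -0.40). Mlycd was -1.01 (adjusted p = 2.73e-05) and Cpt2 -0.84 (adjusted p = 0.00011) against control at that time. Cpt1b and Slc2a4 did not pass at day 3. Cpt1b read 13.32, 13.38 and 13.42 at day 3, 0.09 against control (adjusted p = 0.742), and the direct difference of day 10 from day 3 was -2.50 (adjusted p = 7.93e-10). Slc2a4 was 0.19 at day 3 against control (adjusted p = 0.541) and changed by -2.96 from day 3 to day 10 (adjusted p = 5.49e-10).

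Other genes had peaked at day 3. Hspa1a, an inducible heat shock chaperone gene, whose near-identical copy its probe may not separate, read 12.63, 15.20 and 13.75 at day 3 and 9.68, 10.20 and 9.06 at day 10, within the range of the controls, -4.21 ± 0.65 SE between the times (adjusted p = 1.86e-05). Tnnt3 read 9.87, 10.37 and 10.47 at day 3 and 7.73, 8.52 and 7.72 at day 10, and Cdkn1a read 12.73, 14.12 and 13.53 and 11.70, 11.85 and 11.19. Both were lower at day 10 than at day 3, with differences of -2.24 and -1.88 (adjusted p = 2.66e-06 and 0.000869), and still above control. Chac1 and Hcn2 changed sign against control: Chac1 was 1.97 at day 3 (adjusted p = 1.8e-05) and -1.12 at day 10 (adjusted p = 0.00447), and Hcn2 was 1.31 (adjusted p = 0.00129) and -2.06 (adjusted p = 4.04e-06). The direct differences were -3.09 for Chac1 (adjusted p = 1.82e-07) and -3.37 for Hcn2 (adjusted p = 3.89e-08). Some muscle genes had been lowest at day 3. Gja1 read 12.08, 12.46 and 12.28 at day 3 and was 1.90 higher at day 10 (adjusted p = 1.65e-07), Pln was 2.30 higher (adjusted p = 1.36e-05), the LIM protein gene Fhl2 2.93 (adjusted p = 1.05e-08) and Ppargc1a 1.64 (adjusted p = 0.00575). Myl7 and Sln, which are atrial genes, were lower at day 10 than at day 3, with differences of -4.24 and -4.16 (adjusted p = 0.00105 and 0.000132).

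**Figure D5:**
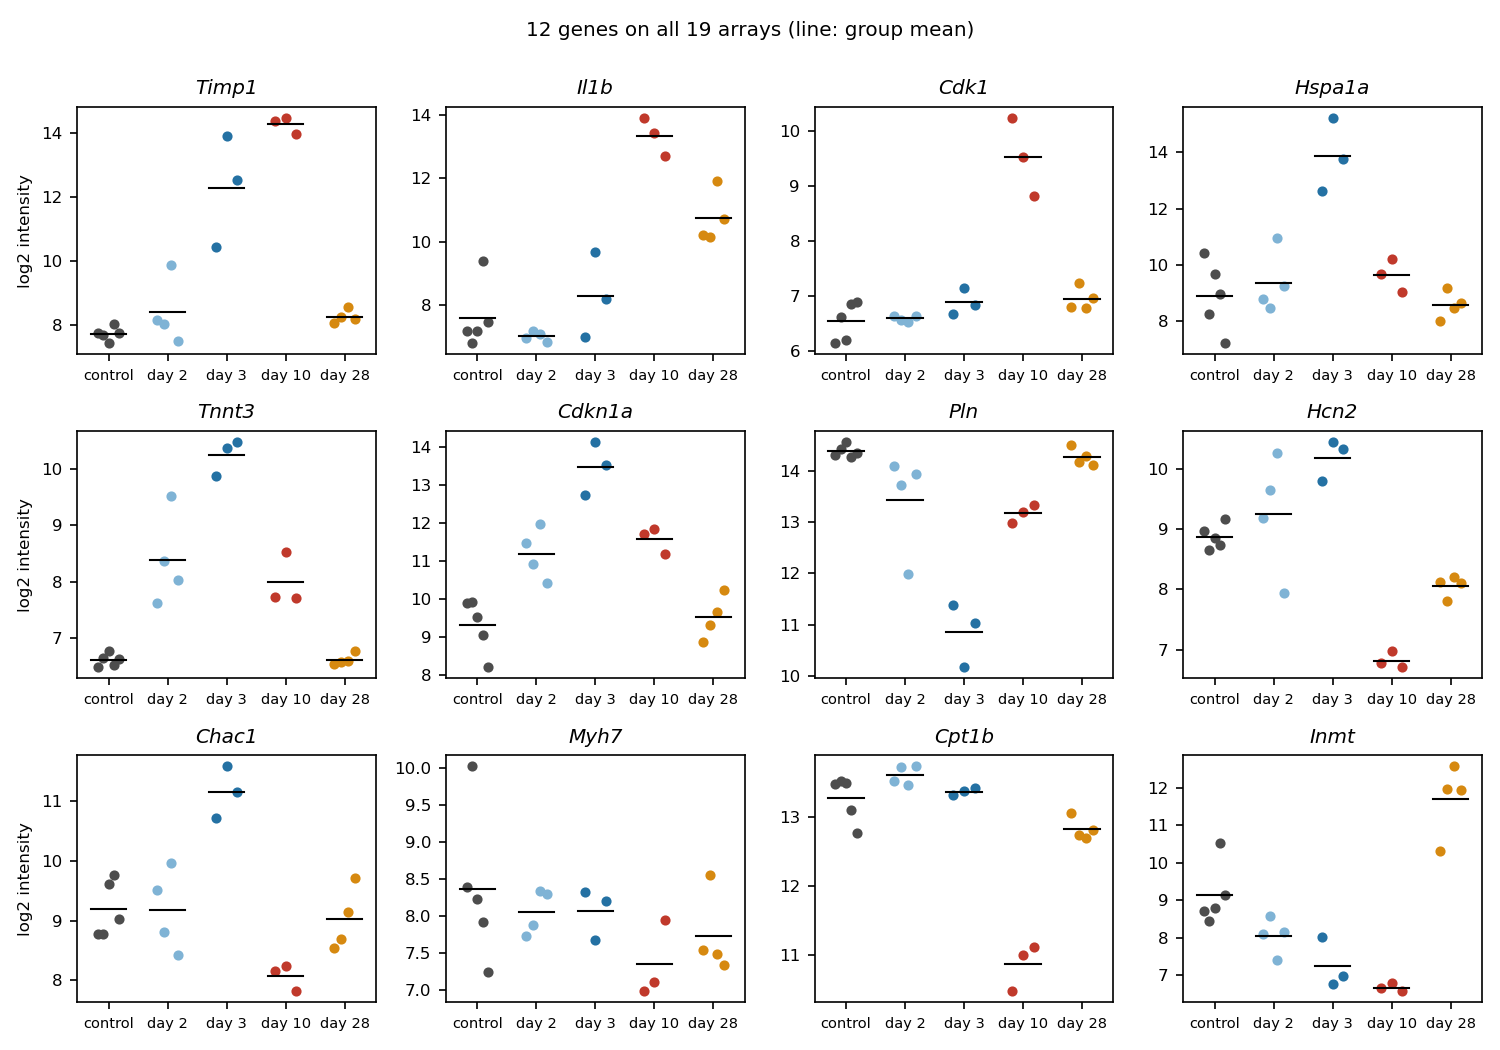
Log2 intensity (y axis) of 12 genes on all 19 arrays by group (x axis: control, day 2, day 3, day 10, day 28), with a line at each group mean. Il1b and Cdk1 are highest and Cpt1b is lowest at day 10, Hspa1a, Tnnt3 and Cdkn1a peak at day 3, and Inmt is lowest at day 10 and highest at day 28.

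Day 28 was compared with day 10 to see what had turned back. In this comparison, which shares its day 10 arrays with the one above, 2102 genes (16.2%) were higher at day 28 than at day 10 and 1987 (15.4%) lower. Fatty acid genes were higher at day 28 in 28 of 32, complex I genes in 27 of 32 and citric acid cycle genes in 22 of 28, and macrophage markers were lower in 22 of 25, mitosis genes in 24 of 29 and ribosomal protein genes in 22 of 34. Timp1 read 8.06, 8.23, 8.55 and 8.18 at day 28, a difference of -6.03 from day 10 (adjusted p = 3.75e-09), and was 0.54 against control (adjusted p = 0.607). Ces1d read 12.88, 12.45, 12.81 and 12.78, 4.05 higher than at day 10 (adjusted p = 1.56e-10). Cpt1b was 1.96 higher (adjusted p = 8.68e-09).

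Against control, 172 genes (1.33%) were higher at day 28 and 98 (0.757%) lower. Immediate early genes, which cells switch on quickly after a stimulus, numbered 15 of 23 higher and 0 lower, beside these shares over all genes. Further lists with members higher than control at day 28 included those of chemokines (9 of 29), interleukin and TNF family genes (8 of 38), matricellular genes (7 of 32) and fibroblast markers (4 of 15), each with 0 lower, and 3 of 32 fatty acid genes were still lower. Whether these day 28 counts depend on which controls are used was not tested. The mean of the chemokine list overlapped, at 7.38 to 8.37 in the controls and 8.22 to 8.70 at day 28. At the earlier time, day 10, the immediate early genes had 10 members higher than in control and 2 lower. Fos read 8.03, 8.67, 8.62, 11.45 and 8.41 in the controls, 12.79, 13.08 and 12.62 at day 10 and 12.52, 12.77, 12.86 and 12.23 at day 28. Control 4 was far above the other controls but below every day 10 and day 28 array. The difference from control was 3.80 at day 10 (adjusted p = 2.44e-07) and 3.56 at day 28 (adjusted p = 1.51e-05), and from day 10 to day 28 it was -0.23 (adjusted p = 0.774). Cxcl1 read 12.66, 12.55 and 11.53 at day 10 and 12.90, 12.93, 14.06 and 14.07 at day 28, 5.04 above control (adjusted p = 3.49e-06). Il1b fell from day 10 to day 28 by 2.60 (adjusted p = 0.00039) and was still 3.14 above control (adjusted p = 0.000343).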

How the data were processed

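RNA from left ventricular myocardium (RNA integrity number above 9, TRIzol extraction, per the labels' protocols) was amplified to biotinylated cRNA and hybridised to Illumina mouse bead arrays of 25697 probes. The deposited values are intensity values on a linear scale that the authors had normalized: the sorted values of all 19 columns are identical, which is what quantile normalization gives, from 116.032 to 57814.4 with a median of 191.479. Whether background had been subtracted, and with which program, is not given in the sources used here. A second deposited table of unnormalized signals has 38 columns whose names match no sample label and was not used.

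From these intensities limma 3.58.1 (R 4.3.3) made log2 values after normexp background correction with an offset of 50. Probes above the 25th percentile of mean intensity over all 19 arrays (162.92) were kept, 19272 in all. Of these, 18095 have 1 gene symbol (12938 genes) and 1177 none. A dim gene could pass this filter through high values in 1 group. The linear model had 1 mean for each group, used all 19 arrays and moderated the variances (prior degrees of freedom 9.66, residual 14). Benjamini-Hochberg adjustment of the 2-sided p-values ran over all 19272 probes, and adjusted p under 0.05 was the threshold for a call. Where a gene has several probes, the one with the highest mean intensity over all arrays stands for it. Each array counted as its own sample. Nothing in the labels says how they were collected, so the p-values measure the spread between these samples, and the number of arrays limits the precision. Slides, scan dates and batches are not named in the labels or column headers. The replicate numbers do not mark pairs: the correlations of same-numbered control and day 10 arrays after removal of the group means were -0.083, 0.076 and 0.073.

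The comparisons, the gene lists and the rule for named genes were chosen with earlier results of these data known. The genes named are the 15 largest rises and falls, the largest called changes of each list, anchor genes of each list, the brightest members that did not pass, and the largest changes between day 10 and days 3 and 28. Acot2 and Myh1 were named outside that rule after their values were seen. Postn, Cthrc1 and Cilp are named only as markers that were not tested. Lists are described by counts and medians beside the same over all genes, with no test of a list. The fit was tested on simulated data. Alternatives were no background correction, an offset of 16, no filter, a filter at the 50th percentile, a fit of only the groups compared, a block for the replicate number, robust variances with a trend, weights for the arrays, 1 probe per gene, a 2-fold threshold, controls 1 to 3 or 4 and 5 alone, and leaving out each array in turn. Promoter windows are from RefSeq (GRCm38.p6). Python 3.11.15 with matplotlib 3.10.9 drew the figures.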

Additional observations from a re-analysis of the deposited data

Results flagged for a closer look

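Among the 283 named genes that were tested, single arrays stood apart from their group in 13 cases among the 5 controls. Among the 4 day 28 arrays they did so in 21 cases. The rule was Dixon's criterion at the 95% level (the gap to the nearest array relative to the range of the group). Chance alone gives about 1 such case in 20 groups. At that rate the total of 13 control cases among 283 genes is no more than chance gives, and the 21 at day 28 are somewhat more. The total does not show whether 1 array stands apart in related genes. Of the 13 control cases, 6 were in control 4 and 0 in control 1, and whether they go together was not tested. The cases below are therefore listed as descriptions. The day 10 group of 3 was not examined in this way. Control 2 was the highest in Nppa (15.24, nearest 13.84) and the lowest in Tgfb1 (8.36, nearest 8.65). Control 3 was the highest in Atp5a1 (13.97, nearest 13.48) and Hspa5 (8.44, nearest 7.78). Control 4 was the highest in Arg1 (6.66, nearest 6.18), Cxcl1 (11.14, nearest 8.17), Fos (11.45, nearest 8.67), Il1b (9.40, nearest 7.48), Osm (7.27, nearest 6.36) and Tnc (7.09, nearest 6.56). Control 5 was the highest in Myl1 (13.26, nearest 12.50) and the lowest in Acadm (14.79, nearest 14.97) and Mdm2 (10.61, nearest 10.92). Day 28 array 1 was the highest in Kcnk3 (10.71, nearest 10.42), Lgals4 (9.95, nearest 9.65) and Tnni3 (12.86, nearest 12.59) and the lowest in Casp8 (7.91, nearest 8.27), Dcn (14.87, nearest 15.14), Fbln1 (11.11, nearest 12.23), Igf1 (8.10, nearest 8.34), Mdm2 (10.59, nearest 10.86) and Tgfbi (10.37, nearest 10.88). Day 28 array 2 was the highest in Myh7 (8.56, nearest 7.54) and Nppb (14.37, nearest 13.49) and the lowest in C1qb (10.65, nearest 10.84), Ckm (13.68, nearest 13.83), Ctsc (9.98, nearest 10.31), Dlat (10.70, nearest 11.11), Msmo1 (8.57, nearest 8.92) and Rpl3l (13.69, nearest 13.98). Day 28 array 3 was the highest in Tnf (9.30, nearest 7.94). Day 28 array 4 was the highest in Ctss (8.16, nearest 7.60) and the lowest in Dbp (12.41, nearest 12.74) and Kcnd2 (7.48, nearest 8.20).

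The change against control had opposite directions at day 3 and day 10, both past the test, in 7 of these genes, and the direct difference of day 10 from day 3 passed in each. Chac1 was 1.97 at day 3 and -1.12 at day 10, with a direct difference of -3.09 (adjusted p = 1.82e-07). Csrp3 was -0.65 at day 3 and 0.64 at day 10, with a direct difference of 1.29 (adjusted p = 2.42e-07). Fhl1 was -0.67 at day 3 and 2.29 at day 10, with a direct difference of 2.96 (adjusted p = 9.88e-12). Gadd45a was 1.26 at day 3 and -1.45 at day 10, with a direct difference of -2.71 (adjusted p = 9.15e-10). Hcn2 was 1.31 at day 3 and -2.06 at day 10, with a direct difference of -3.37 (adjusted p = 3.89e-08). Mybpc3 was 0.48 at day 3 and -1.18 at day 10, with a direct difference of -1.66 (adjusted p = 3.73e-07). Sln was 2.09 at day 3 and -2.07 at day 10, with a direct difference of -4.16 (adjusted p = 0.000132). Sln is an atrial gene whose controls ranged widely, and its day 10 call was lost without control 2 (adjusted p = 0.0568), day 10 array 2 (0.0567) or day 10 array 3 (0.0623). Both contrasts with control share the control arrays.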

How the results depend on the processing

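Opposite calls under any alternative numbered 0 among the 6894 probes called at day 10 against control. Requiring a 2-fold change left 2134 probes called at day 10 against control, 1837 of 6053 for day 10 against day 3 and 1608 of 5791 for day 28 against day 10. All other alternatives kept these 3 counts within 1.5 times, and leaving out 1 array at a time gave 5766 to 6870 for day 10 against control, 5007 to 5826 for day 10 against day 3 and 4598 to 5325 for day 28 against day 10. With controls 4 and 5 alone 5148 probes were called and 4784 of the original calls (69.4%) kept, and with controls 1 to 3 alone 6919 were called and 6219 (90.2%) kept. With the replicate number as a block the counts were 6818 for day 10 against control, 6081 for day 10 against day 3 and 5777 for day 28 against day 10. The numbers do not pair the samples (correlations of -0.083 to 0.076 for control and day 10), so this fit is given for completeness.

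Of the 235 named genes called at day 10, 229 kept their call under every alternative in which they were tested, the 2-fold threshold aside. Lyve1, Myh7, Plin2, Ppargc1a, Sln and Timd4 did not. The 2-fold threshold drops every smaller change, such as those of Cd36 and Tfam. List counts also shrank under that threshold: complex I falls went from 27 to 8, ribosomal protein rises from 25 to 12 and proteasome rises from 21 to 2. In every alternative the list members were taken from those that passed the main filter. The fit with no filter therefore could not add the members left out, and the list counts do not test that filter. Under the remaining alternatives 47 of 59 list counts of 5 or more stayed within 1.5 times. The others were those of sarcomere, calcium cycling, ion channel, transcription factor, atrial and heat shock genes (lower) and of interferon-stimulated, MHC, oxidative stress, glycolysis, complement and angiogenic genes (higher). Complement rises numbered 3 with the 50th percentile filter and angiogenic rises 3 against controls 4 and 5 alone. The transcription factor falls were also 12 with the replicate block and 11 with array weights. Smaller counts are less stable: 37 of 55 under 5 moved. The arrays lack detection calls here, so dim genes such as the neutrophil granule genes cannot be told from background, and genes near the ceiling are compressed.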

Other observations

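Inmt, a methyltransferase of indoleamines and thioethers, had its lowest group mean at day 10 and its highest at day 28. It read 8.72, 8.46, 8.79, 10.53 and 9.14 in the controls, 6.66, 6.79 and 6.58 at day 10 and 10.30, 11.97, 12.57 and 11.94 at day 28. It fell by 2.45 at day 10 (adjusted p = 3.52e-05), rose by 5.02 ± 0.43 SE from there to day 28 (adjusted p = 6.01e-09) and ended 2.57 above control (adjusted p = 0.000367). Control 4 was the highest control and lay above day 28 array 1, and a fit with a part of the controls was not run for day 28. Fbln1, which fell at day 10, was 3.05 higher at day 28 than at day 10 (adjusted p = 3.25e-10) and 0.64 against control (adjusted p = 0.0789).

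Several genes exist as a muscle form and a form found in most tissues, and the forms moved apart at day 10 in the pairs named here. The muscle forms Rpl3l (-1.89), Slc2a4 (-2.78), Pgam2 (-1.66) and Ckm (-1.47) fell and Rpl3 (1.57), Slc2a1 (1.21), Pgam1 (0.96) and Ckb (0.79) rose. The pairs were picked after their values were seen, and they do not stand for all such pairs. The carnitine palmitoyltransferase form of other tissues fell along with the muscle form Cpt1b, and the muscle form Cox6a2 did not pass. Whether the forms change in the same cells was not tested.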
